A study of Mus musculus with 23 samples.

Results

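Of 44 protein-coding genes in the count table that carry the symbol of a collagen chain, the 43 with at least 30 counts over the 9 libraries of the table are described here, out of 54446 genes listed. They were divided into 11 fibrillar chains, 8 network chains and 24 other chains. The other chains were 9 FACIT chains (fibril-associated collagens with interrupted triple helices), 6 beaded filament chains of type VI, 4 transmembrane chains, 2 multiplexins, 1 anchoring fibril chain and 2 chains put in no family. Col10a1, with 19 counts in all, lay just under the minimum, and Col9a3 (47 counts), Col2a1 (58) and Col4a6 (93) lay just above it.

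RNA came from skeletal muscle of mice, and the series asked how transcription factors control gene expression in muscle that has lost its nerve. The first set held raw counts of 3 libraries of denervated muscle labelled PAX4 KO, 3 of denervated muscle of WT mice and 3 of innervated control muscle of WT mice. The second set held values of 3 libraries labelled NRF1-PAX4 double KD (genotype NRF1PAL-PAX4 double KD), 3 labelled NRF1 KD (genotype NRF1PAL KD) and 2 labelled WT con. All denervated muscle of both sets was taken 10 d after denervation. The labels give no strain, sex or age, no muscle, no promoter or cell type in which a factor was removed or lowered, and not whether libraries came from separate animals. The p-values therefore cover the scatter from library to library and nothing beyond it, and part of that scatter may be technical.

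Collagens are secreted proteins of 3 chains wound into a triple helix. Types I, III and V form the banded fibrils of connective tissue, which in muscle is the sheet around fibres and bundles and the tendon they end in, and these chains are made largely by fibroblasts. Type IV chains form the network of the basement membrane that wraps each muscle fibre, blood vessel and nerve sheath. Type VI chains form beaded filaments between that membrane and the fibrils, FACIT chains sit on fibril surfaces, and transmembrane collagens XIII and XXV are known from the nerve-muscle synapse and its formation. In whole muscle, a change in the number of cells of a type and a change in RNA per cell cannot be told apart.

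Upstream sequences are shown for 4 chains that the results turn on. Col3a1 and Col8a1 were the 2 chains called in both knockdown comparisons, and Col19a1 and Col9a1 had the highest and the lowest fold change with denervation. The bases are those before the transcription start in RefSeq on GRCm38.p6, 5′ to 3′ on the strand of the gene, ending before the start in the count table as well. Capitals mark, on either strand, a CCAAT box, a TATAAA box, the core GGGCGG of a GC box, or CAGCTG as an E box.
Col3a1, chr1:45311288-45311537, plus strand: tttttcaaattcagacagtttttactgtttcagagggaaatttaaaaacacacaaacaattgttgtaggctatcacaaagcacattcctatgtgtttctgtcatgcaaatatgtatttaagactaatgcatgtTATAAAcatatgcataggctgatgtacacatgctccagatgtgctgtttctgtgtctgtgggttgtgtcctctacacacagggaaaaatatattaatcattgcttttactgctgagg
Col8a1, chr16:57754738-57754987, minus strand: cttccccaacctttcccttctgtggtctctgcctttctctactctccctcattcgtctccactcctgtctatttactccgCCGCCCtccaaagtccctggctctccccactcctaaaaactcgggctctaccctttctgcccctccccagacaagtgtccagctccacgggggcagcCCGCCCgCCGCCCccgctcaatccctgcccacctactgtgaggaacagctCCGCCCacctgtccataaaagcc
Col19a1, chr1:24587473-24587687, minus strand: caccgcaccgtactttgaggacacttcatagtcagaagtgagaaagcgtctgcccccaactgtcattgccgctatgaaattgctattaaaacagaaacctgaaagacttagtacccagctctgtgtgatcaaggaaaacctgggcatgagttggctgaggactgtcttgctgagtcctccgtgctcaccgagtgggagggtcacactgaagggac
Col9a1, chr1:24177360-24177609, plus strand: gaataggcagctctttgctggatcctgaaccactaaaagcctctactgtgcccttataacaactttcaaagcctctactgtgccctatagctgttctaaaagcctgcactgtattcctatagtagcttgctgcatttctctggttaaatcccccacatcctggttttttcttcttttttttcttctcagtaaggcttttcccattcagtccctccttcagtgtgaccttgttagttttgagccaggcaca
The Col3a1 stretch held 1 TATAAA and the Col8a1 stretch 4 copies of GGGCGG, all on the opposite strand. The Col19a1 and Col9a1 stretches held none of these letters.

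The RefSeq table held 37 windows of 250 bases before a start for 34 of the 43 chains, and 32851 windows for all genes. GGGCGG, the core of a GC box, stood on either strand in 59.5% of the windows of the collagen chains and in 32.7% of all windows. CCAAT stood in 35.1% of the windows of the chains and 33.9% of all windows, TATAAA in 10.8% and 12.4%, and CAGCTG, an E box, in 16.2% and 13.0%. The motif TGCGCA, a core of the palindrome that NRF1 binds, stood in 2.7% of the windows of the chains and 6.43% of all windows. Such matches describe letters and not binding.

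Many collagen genes lie side by side. Col4a1 and Col4a2, the chains of the common basement membrane network, are transcribed away from each other on chromosome 8 and overlap by 22 bases at their starts. Col4a3 and Col4a4 are arranged in the same way on chromosome 1 with 71 bases between them. Col9a1 and Col19a1 run towards each other on chromosome 1 with 9205 bases between their ends. Whether the counting used strand is not given in the sources used here, so reads in shared bases cannot be assigned. Col6a4, Col6a5 and Col6a6 lie in 1 row on chromosome 9 and are close relatives, so reads could be split among them and their counts are uncertain to that extent.

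The libraries held 21716216 to 42821396 counts in the first set and 23740769 to 30165765 recovered reads in the second. No read was counted for Pax4 in any of the 9 libraries with raw counts, so the PAX4 KO label could not be checked; a count of 0 allows 0.0722 to 0.148 CPM, the count scaled to library size. Nrf1 was not called in either knockdown group of the second set, with log2 fold changes of -0.07 ± 0.12 (SE) in double KD and 0.10 ± 0.12 in NRF1 KD against WT con. It had 450, 427 and 454 normalised counts in double KD and 499, 476 and 524 in NRF1 KD libraries, against 488 and 444 in WT con libraries, so its transcript does not bear out the knockdown labels, which are used here as names. Ckm, the creatine kinase of muscle fibres, had 3024 to 4818 CPM in PAX4 KO, 4671 to 6234 CPM in denervated WT and 11056 to 14251 CPM in innervated WT libraries. Innervated WT library 2 held 16.0 CPM of Chrng, an acetylcholine receptor subunit that muscle expresses after loss of its nerve. Its partners held 0.197 and 0.105 CPM, and denervated WT libraries 84.5 to 155 CPM.

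Collagen chains took a small share of all counts that was uneven between libraries. The 43 chains held 0.420%, 1.35% and 0.444% of the counts in PAX4 KO libraries 1 to 3, against 0.333%, 0.181% and 0.244% in denervated WT and 0.187%, 0.273% and 0.213% in innervated WT libraries. All 3 PAX4 KO libraries lay above all 6 WT libraries, and PAX4 KO library 2 lay far above its partners. Fibrillar chains made up 65.5%, 76.9% and 67.1% of the collagen counts in PAX4 KO, 61.2%, 61.4% and 57.8% in denervated WT and 46.7%, 57.4% and 52.8% in innervated WT libraries. The network chains took 17.5%, 7.77% and 18.5% in PAX4 KO, 20.3%, 19.3% and 24.2% in denervated WT and 30.6%, 22.2% and 26.9% in innervated WT libraries.

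Per kilobase of transcript, Col3a1 stood first and Col1a2 second in each group. Col3a1 had 307 ± 168 CPM per kb in PAX4 KO, 119 ± 32.0 in denervated WT and 99.9 ± 22.2 in innervated WT libraries (SD, n = 3 each), and Col1a2 had 231 ± 215, 63.2 ± 15.5 and 70.9 ± 21.0 CPM per kb in the same groups. The third place went to Col1a1 in PAX4 KO (168 ± 145) and denervated WT muscle (45.4 ± 12.8) and to Col4a1 in innervated WT muscle (60.1 ± 0.798). In denervated WT muscle Col4a1, in place 4 (41.6 ± 11.4), did not differ from Col1a1 beyond their spread. In PAX4 KO muscle Col4a1 was in place 4 as well (57.4 ± 6.45), but Col1a1 lay above it in every library. Col1a1 had 423, 1983 and 580 CPM there, against 331, 411 and 397 CPM of Col4a1, whose transcript is longer. At the other end, Col9a1 was last in both denervated groups, and Col6a4 was last in innervated WT muscle.

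**Figure D1:**
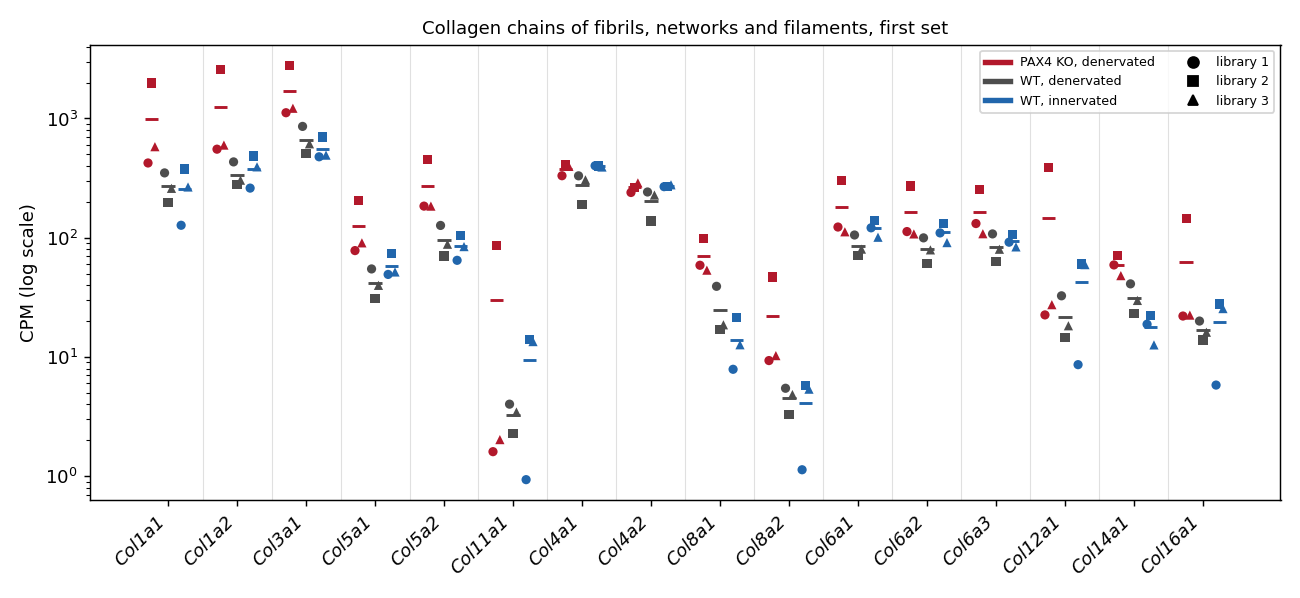
Levels of 16 collagen chains in CPM (log axis) in each library of the first set, with PAX4 KO denervated, WT denervated and WT innervated muscle from left to right, a symbol for each library and a bar for the mean of 3. PAX4 KO library 2 stands above its partners for most chains, with 85.8 CPM of Col11a1 against 1.61 and 2.03 CPM, while Col4a1 and Col4a2 lie close together in all 9 libraries.

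Denervation of WT muscle left the main fibril chains at levels that were not called different, lowered 2 minor type IV chains, Col4a3 and Col4a4, and moved several minor chains of other families in both directions. Of 41 chains tested, 4 rose and 8 fell at an adjusted p under 0.05 and 29 did not pass; over all 16146 genes tested, 16.5% rose and 15.8% fell. The 4 of 41 that rose are a smaller share than in all genes and the 8 of 41 that fell a slightly larger one; neither gap was tested. The median log2 fold change of the chains was -0.16, against 0.02 over all genes. Col2a1 and Col9a3 were left out by the filter on low counts.

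Among the 10 fibrillar chains tested, 0 rose and 2 fell, and their median was -0.10. Col1a1, the first chain of type I, had 350, 198 and 259 CPM in denervated WT and 127, 377 and 266 CPM in innervated WT libraries. Its partner Col1a2 had 432, 277 and 304 CPM in denervated WT and 261, 484 and 393 CPM in innervated WT libraries. Col3a1, the single chain of type III, had 858, 511 and 613 CPM in denervated WT and 477, 698 and 492 CPM in innervated WT libraries. The groups overlap for all 3 chains, with log2 fold changes of 0.07 ± 0.54, -0.17 ± 0.52 and 0.25 ± 0.34 (edgeR, adjusted p 0.94, 0.831 and 0.613).

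The 2 fibrillar chains that fell are minor ones. Col24a1, a chain known from developing bone, had 1.06, 0.755 and 0.864 CPM in denervated WT libraries, against 5.86, 5.37 and 8.23 CPM in innervated WT libraries. The groups were far apart, with a log2 fold change of -2.85 ± 0.72 (edgeR, adjusted p 0.0135). Col5a3, a chain of type V, had 45.8, 40.6 and 37.4 CPM in denervated WT libraries, against 66.9, 71.4 and 56.2 CPM in innervated WT libraries. It fell by 0.65 ± 0.15 on the log2 scale (edgeR, adjusted p 0.00766).

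Among the 8 network chains, Col4a3 and Col4a4 fell and none rose. These chains form the type IV network with Col4a5 that is best known from the kidney filter. Col4a3 had 1.83, 1.29 and 1.62 CPM in denervated WT libraries, against 4.29, 3.73 and 3.94 CPM in innervated WT libraries. Col4a4 had 2.26, 2.80 and 2.22 CPM in denervated WT libraries, against 7, 4.66 and 4.74 CPM in innervated WT libraries. Every denervated library lay below every innervated one for both neighbours, with log2 fold changes of -1.33 ± 0.26 and -1.16 ± 0.27 (edgeR, adjusted p 0.00367 and 0.00851). Col4a5 (0.21 ± 0.21) and Col4a6 (-0.33 ± 0.37) did not pass the test.

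The abundant network chains Col4a1 and Col4a2 stayed just outside the call. Col4a1 had 330, 189 and 306 CPM in denervated WT and 401, 400 and 392 CPM in innervated WT libraries. All denervated libraries lay lower, with a log2 fold change of -0.53 ± 0.19 (edgeR, adjusted p 0.0554), and Col4a2 gave -0.43 ± 0.19 (adjusted p 0.107). DESeq2 and the fit without denervated WT library 1 called Col4a1, as did edgeR with no filter on low counts. Of 6 endothelial markers 5 fell, where 15.8% of all genes fell and 16.5% rose. Their summed level was 365 to 489 CPM in denervated WT and 669 to 755 CPM in innervated WT libraries. Of 7 smooth muscle and pericyte markers 5 fell and 1 rose. The one that rose was Des, which muscle fibres also express, with 4394 to 6613 CPM in denervated WT and 2325 to 2884 CPM in innervated WT libraries. Of 8 macrophage markers 7 rose and 0 fell. The part of these cells in the results of denervation was not tested.

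Among the 23 other chains tested, 4 rose and 4 fell. Col19a1, a FACIT chain that in mice is known from muscle formation, rose most. It had 0.963, 2.15 and 2.43 CPM in denervated WT libraries, against 0.640, 0.274 and 0.384 CPM in innervated WT libraries, a log2 fold change of 2.14 ± 0.42 (edgeR, adjusted p 0.00386). Its neighbour Col9a1, a FACIT chain of cartilage, had 4, 1 and 1 raw counts in denervated WT libraries, against 42, 45 and 41 in innervated WT libraries. The groups did not overlap, with a log2 fold change of -4.83 ± 0.55 (edgeR, adjusted p 0.000304). The 2 neighbours moved in opposite directions.

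Col7a1, the chain of the anchoring fibrils best known from skin, had 28.1, 22.5 and 16.2 CPM in denervated WT libraries, against 7.88, 13.6 and 8.23 CPM in innervated WT libraries. It rose by 1.16 ± 0.23 on the log2 scale (edgeR, adjusted p 0.00439). Col14a1, a FACIT chain on type I fibrils, rose by 0.80 ± 0.25 and Col28a1, known from peripheral nerve, by 0.88 ± 0.30 (adjusted p 0.0321 and 0.0460). The 2 groups did not overlap for any of these 3 chains.

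Col22a1, the FACIT chain of tissue junctions such as the muscle-tendon junction, fell. It had 6.04, 6.46 and 4.82 CPM in denervated WT libraries, against 14.9, 18.2 and 17.5 CPM in innervated WT libraries, a log2 fold change of -1.55 ± 0.44 (edgeR, adjusted p 0.0218). Of 7 tendon markers 1 rose (Scx, 3.10) and 1 fell (Kera, -2.35), where 16.5% of all genes rose and 15.8% fell. Their summed level was 183 to 231 CPM in denervated WT and 160 to 297 CPM in innervated WT libraries. Col6a6, a type VI chain, fell by 1.02 ± 0.35 and Col15a1, a multiplexin of the outer basement membrane, by 0.58 ± 0.18 on the log2 scale (adjusted p 0.0464 and 0.0325).

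The 2 synapse-related transmembrane chains were not called. Col25a1 had 0.915, 0.979 and 0.890 CPM in denervated WT libraries, against 0.0493, 0.603 and 0.453 CPM in innervated WT libraries. The groups did not overlap, and the log2 fold change was 1.23 ± 0.50 (edgeR, adjusted p 0.0854). Without innervated WT library 2, the one with the highest Chrng level of its group, Col25a1 was called at 1.76. Col13a1 had 2.05, 1.90 and 1.68 CPM in denervated WT and 1.38, 2.55 and 2.30 CPM in innervated WT libraries, and the groups overlapped. Over the 41 chains, 6 had every denervated library above every innervated one and 11 every one below; over all genes these shares were 23.9% and 22.6%.

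**Figure D2:**
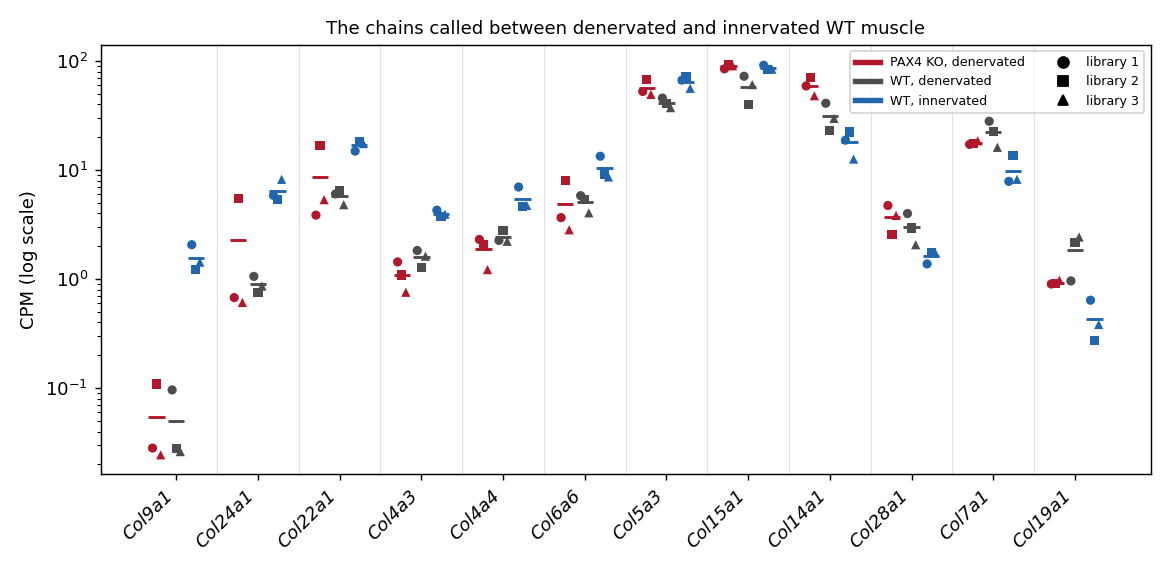
Levels in CPM (log axis) of the 12 chains called between denervated and innervated WT muscle, ordered by fold change, for PAX4 KO denervated, WT denervated and WT innervated libraries from left to right, with a bar for the mean of 3. Col9a1 reaches 1.23 to 2.07 CPM in innervated WT libraries and at most 0.109 CPM in the 6 denervated ones.

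The calls differed in how far they rested on single libraries. Of the 12 calls, 6 (Col19a1, Col7a1, Col9a1, Col4a3, Col4a4 and Col5a3) were kept when any of the 9 libraries was left out. The other 6 were lost in at least 1 such fit. The count of chains that fell ranged from 4 without denervated WT library 2 to 10 without PAX4 KO library 2. Of all genes 1852 of 16518 and 2618 of 16375 fell in these fits. The count that rose was 2 without denervated WT library 1, or without innervated WT library 1 or 3. There 14.4%, 10.5% and 10.6% of all genes rose. Without both innervated WT library 2 and denervated WT library 1, 10 chains were called, 9 of them among the 12. Over all 16279 genes of that fit 2617 rose and 2398 fell. The authors' deposited table gave an adjusted p under 0.05 to 14 of 39 chains for denervated against innervated muscle. The share of all genes that passed in the authors' test was not taken, so this count has no background beside it.

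Between PAX4 KO and WT muscle, both denervated, no chain was called, although the fibrillar chains all lay on the higher side and all 3 PAX4 KO libraries exceeded all 3 WT libraries for 17 of the 41 chains. Over all 16146 genes, 0.0186% (3 genes) rose and 0.0% fell at an adjusted p under 0.05 in edgeR. At an unadjusted p under 0.05, 20 chains were higher and 2 lower, against 1308 and 781 of all genes tested. DESeq2 called 1 chain, Col14a1, where 0.423% of all genes rose. The median log2 fold change was 0.63 over the chains and 0.01 over all genes. The share of all genes with every PAX4 KO library above was 9.69%, and with every one below 7.23%; 0 chains had every one below.

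The fibrillar chains had a median log2 fold change of 1.45, with 10 of 10 positive and 8 at an unadjusted p under 0.05. Col1a1 had 423, 1983 and 580 CPM in PAX4 KO libraries, against 350, 198 and 259 CPM in denervated WT libraries. Col1a2 had 553, 2562 and 598 CPM in PAX4 KO libraries, against 432, 277 and 304 CPM in denervated WT libraries. Col3a1 had 1117, 2788 and 1218 CPM in PAX4 KO libraries, against 858, 511 and 613 CPM in denervated WT libraries. All PAX4 KO libraries lay above all WT libraries for each, and the log2 fold changes were 1.89 ± 0.56, 1.87 ± 0.53 and 1.37 ± 0.35 (edgeR, adjusted p 0.29, 0.283 and 0.264). Col5a1 and Col5a2, the type V chains inside type I fibrils, gave 1.58 ± 0.36 and 1.52 ± 0.36 (adjusted p 0.253 and 0.264).

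PAX4 KO library 2 carried much of the size. In it, 21 of the 41 chains exceeded the mean of its partners by more than 2-fold, while in PAX4 KO libraries 1 and 3 that held for 0 chains. This count was not made over all genes, so it does not set the chains apart from the rest of the library. Col11a1, a fibrillar chain of cartilage and tendon, had the highest log2 fold change, 3.18 ± 1.36, with 1.61, 85.8 and 2.03 CPM in PAX4 KO and 4.02, 2.29 and 3.45 CPM in denervated WT libraries. Library 2 was 47.2-fold above the mean of its partners, which lay below every WT library, and without it the value was -0.84. Col12a1, a FACIT chain of tendon and muscle sheaths, had 22.5, 385 and 27.4 CPM in PAX4 KO and 32.6, 14.6 and 18.3 CPM in denervated WT libraries, with 2.73 ± 1.05 on the log2 scale and 0.20 without library 2. The other libraries of both groups overlap for Col11a1 and Col12a1 or lie the other way.

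Without PAX4 KO library 2, 8 of 10 fibrillar chains were positive, 6 had an unadjusted p under 0.05 and the median log2 fold change was 0.59; again 0 chains were called. Col1a1 then gave 0.90, Col1a2 0.77, Col3a1 0.82, Col5a1 1.01 and Col5a2 0.95. Over all 41 chains 13 were higher and 2 lower at an unadjusted p under 0.05, with a median of 0.38. The median over all genes in this fit was -0.0012. Counts at an unadjusted p were not made over all genes for this fit. Denervated WT library 1 was the highest of its group for most fibrillar chains, and without it the fibrillar median was 1.69.

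Among the network chains Col8a1, Col8a2, Col4a1 and Col4a2 had positive values and Col4a3 to Col4a6 negative ones. Col8a1 and Col8a2, short chains of sheet-like type VIII collagen found in vessel walls and other tissues, had positive values. Col8a1 had 58.7, 98.7 and 53.4 CPM in PAX4 KO libraries, against 39.1, 17.0 and 18.6 CPM in denervated WT libraries, and 1.49 ± 0.40 on the log2 scale (edgeR, adjusted p 0.274). Col8a2 gave 2.28 ± 0.66 and 1.112 without PAX4 KO library 2. The basement membrane chains had smaller values: Col4a1 gave 0.47 ± 0.19 and Col4a2 0.38 ± 0.19, with 331, 411 and 397 CPM of Col4a1 in PAX4 KO libraries, against 330, 189 and 306 CPM in denervated WT libraries. Col4a5, at -0.51 ± 0.21 (adjusted p 0.361), was 1 of the 2 chains lower at an unadjusted p under 0.05, and its groups overlapped. The network median was 0.13, with 4 of 8 positive.

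The other chains had a median of 0.58, with 18 of 23 positive and 9 higher and 1 lower at an unadjusted p under 0.05. Col6a1, Col6a2 and Col6a3, the chains of the main type VI filament, lay close to each other at 1.07 ± 0.34, 1.04 ± 0.34 and 0.98 ± 0.30 on the log2 scale. Col6a1 had 123, 303 and 112 CPM in PAX4 KO libraries, against 105, 71.0 and 80.2 CPM in denervated WT libraries. Without PAX4 KO library 2 the 3 chains gave 0.46, 0.46 and 0.52. Col14a1 (0.92 ± 0.25) and Col15a1 (0.63 ± 0.18) depended less on that library, with 0.78 and 0.60 without it.

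Col19a1, which rose with denervation, had the lowest fold change. It had 0.902, 0.910 and 0.978 CPM in PAX4 KO libraries and 0.963, 2.15 and 2.43 CPM in denervated WT libraries. The groups overlapped through denervated WT library 1, and the log2 fold change was -0.99 ± 0.38 (edgeR, adjusted p 0.344). Col22a1 had 3.86, 16.9 and 5.35 CPM in PAX4 KO and 6.04, 6.46 and 4.82 CPM in denervated WT libraries; its value of 0.58 ± 0.44 turned to -0.32 without PAX4 KO library 2.

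Marker sums of other cells were as follows. Macrophage markers summed to 713, 1258 and 896 CPM in PAX4 KO libraries, against 798, 392 and 401 CPM in denervated WT and 223, 329 and 102 CPM in innervated WT libraries, and tendon markers to 333, 573 and 455 CPM, against 231, 222 and 183 CPM and 191, 297 and 160 CPM. Fibroblast markers, leaving out collagens, summed to 1584, 2104 and 1486 CPM in PAX4 KO, 1448, 1519 and 1324 CPM in denervated WT and 2425, 2488 and 1801 CPM in innervated WT libraries. Gsn made up much of the gap between WT groups, with 523, 588 and 559 CPM in denervated and 1277, 1327 and 925 CPM in innervated libraries. With denervation 2 of 9 fibroblast markers rose and 2 fell, where 16.5% of all genes rose and 15.8% fell. Their median log2 fold change was 0.03. The macrophage and fibroblast sums of PAX4 KO and denervated WT libraries overlapped, and the tendon sums did not. Thbs4 made up most of each tendon sum of these libraries. It had 269, 322 and 357 CPM in PAX4 KO and 158, 123 and 95.6 CPM in denervated WT libraries. For every other tendon marker the libraries of these groups overlapped. Library 2 of PAX4 KO muscle had the highest sum of its group in all 3 lists. None of the 8 macrophage, 7 tendon or 9 fibroblast markers was called between PAX4 KO and denervated WT muscle, and no marker of these lists was at 0 in all libraries. Their part in the collagen values was not tested.

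The result for PAX4 KO against denervated WT muscle depended on which genes entered the test. With no filter on low counts edgeR called 15 chains higher and 0 lower, where 1.16% of 30049 genes with counts were higher. These were Col1a1, Col1a2, Col3a1, Col5a1, Col5a2 and Col11a1 among fibrillar chains, Col8a1 and Col8a2 among network chains and 7 others. Without innervated WT library 2 and denervated WT library 1 together, Col18a1, Col6a4 and Col8a1 were called, where 0.645% of all genes rose. The authors' deposited table gave a value for 32 chains here, and 1 of the 32 had an adjusted p under 0.05. The share of all genes that passed there was not taken.

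**Figure D3:**
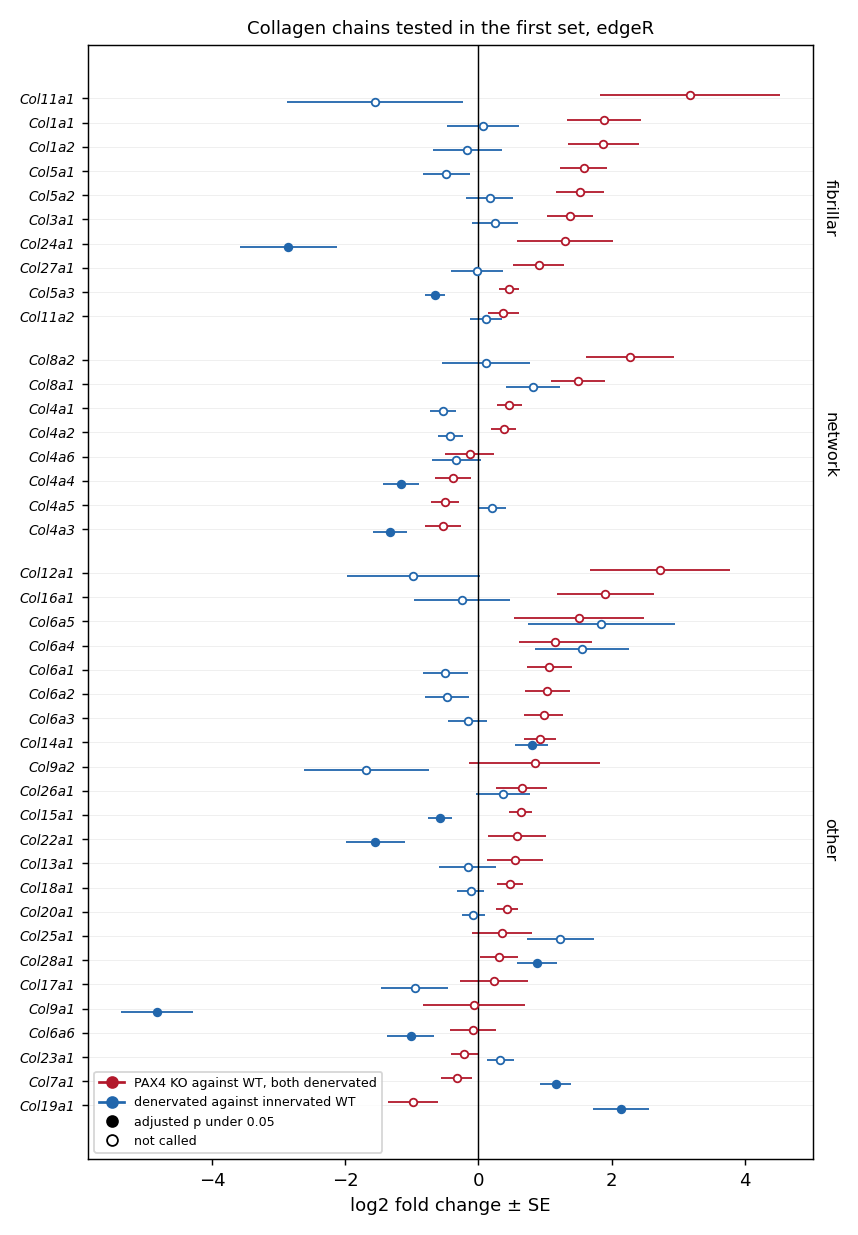
Log2 fold changes with SE for the 41 chains tested in the first set, for PAX4 KO against WT muscle (both denervated, red) and for denervated against innervated WT muscle (blue), ordered within fibrillar, network and other chains; filled points passed an adjusted p under 0.05. All 10 fibrillar chains lie right of 0 in red with open points, and the filled points are 12 blue ones.

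Set against innervated WT muscle, denervated PAX4 KO muscle had 14 chains higher and 4 lower of 41, where 21.8% of all genes rose and 18.2% fell. For 16 chains every PAX4 KO library lay above every innervated one and for 4 below, against 29.0% and 23.3% of all genes. This comparison shares its PAX4 KO libraries with the one above and its innervated libraries with that of WT muscle. Of 10 fibrillar chains, 5 rose (Col1a1, Col1a2, Col3a1, Col5a1 and Col5a2), with a median of 1.36. Col3a1 rose by 1.62 ± 0.35 and Col5a2 by 1.69 ± 0.36 on the log2 scale (edgeR, adjusted p 0.00488 and 0.00474), Col1a1 by 1.95 ± 0.56 and Col1a2 by 1.71 ± 0.53 (0.0191 and 0.0267). Col5a1 rose by 1.10 ± 0.35.

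Of the 8 network chains Col8a1 and Col8a2 rose, by 2.32 ± 0.42 and 2.40 ± 0.67, and Col4a3 and Col4a4 fell, by 1.86 ± 0.27 and 1.55 ± 0.27 (edgeR, adjusted p 0.00198, 0.0169, 0.0006 and 0.00184). Of the 23 other chains 7 rose and 2 fell. Col14a1 (1.73 ± 0.25), Col7a1 (0.83 ± 0.23), Col28a1 (1.19 ± 0.30), Col25a1 (1.58 ± 0.50) and the type VI chains Col6a3, Col6a4 and Col6a5 rose, and Col9a1 (-4.89 ± 0.56) and Col6a6 (-1.10 ± 0.35) fell. Col6a4 had 26, 19 and 30 raw counts in PAX4 KO libraries, 28, 6 and 4 in denervated WT and 3, 3 and 3 in innervated WT libraries, and gave 2.71 ± 0.67. Denervated WT library 1 thus stood with the PAX4 KO libraries. Col19a1, at 1.15 ± 0.43, just missed the call (adjusted p 0.0532).

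This comparison too leaned on PAX4 KO library 2. Without it 7 chains rose and 7 fell, where 16.8% of 16375 genes rose and 2353 genes fell. The 7 lost calls were Col1a1, Col1a2, Col5a1, Col8a2, Col6a3, Col6a5 and Col25a1, while Col22a1, Col24a1 and Col9a2 were gained. Of the 18 calls, 9, among them Col3a1, Col5a2, Col8a1, Col14a1, Col4a3, Col4a4 and Col9a1, were kept when any library was left out. Without innervated WT library 3, 7 chains rose as well, where 15% of all genes rose.

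In the second set 11 chains rose in muscle labelled NRF1 KD against WT con muscle, both denervated; Nrf1 itself was not lower in these libraries. Of the 39 chains listed 0 fell, where 7.58% of all 15624 genes rose and 3.72% fell (limma-trend on log2 of the normalised count plus 1). At an unadjusted p under 0.05, 19 were higher and 0 lower, against 2398 and 1913 of all 15624 genes. For 20 chains every NRF1 KD library lay above both WT con libraries and for 1 every one below, against 22.5% and 23.4% of all genes. The median log2 fold change of the chains was 0.77, against 0.00066 over all genes. Col4a6, Col9a1, Col9a2 and Col9a3 are not listed in this set.

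Of 11 fibrillar chains, 5 rose (Col1a1, Col1a2, Col3a1, Col5a1 and Col5a2), which were also the 5 of highest level. Col1a1 had 11143, 9153 and 16225 normalised counts in NRF1 KD libraries, against 2716 and 4694 in WT con libraries 2 and 3. Col3a1 had 17291, 22974 and 29747 in NRF1 KD libraries, against 6500 and 10537 in WT con libraries. No NRF1 KD library fell within the WT con range, and the log2 fold changes were 1.73 ± 0.40 and 1.46 ± 0.33 (limma, adjusted p 0.022 and 0.0192). Col1a2 rose by 1.56 ± 0.37, Col5a1 by 1.36 ± 0.33 and Col5a2 by 1.38 ± 0.31 (adjusted p 0.0229, 0.0267 and 0.0208). All 11 fibrillar chains were on the higher side, with a median of 1.38.

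Col8a1 had the smallest adjusted p of the chains, 0.00246 in limma. It had 1027, 1573 and 1507 normalised counts in NRF1 KD libraries, against 431 and 467 in WT con libraries, a log2 fold change of 1.58 ± 0.20. Col8a2 rose by 1.84 ± 0.48 (adjusted p 0.034). The basement membrane chain Col4a1 was not called, at 0.77 ± 0.30 (adjusted p 0.124), with 6528, 6804 and 9263 normalised counts in NRF1 KD and 3414 and 5564 in WT con libraries. The remaining type IV chains did not pass the test.

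Of the 21 other chains, 4 rose. Col6a1, Col6a2 and Col6a3 rose by 1.22 ± 0.34, 1.21 ± 0.35 and 1.13 ± 0.22 on the log2 scale, and Col16a1, a FACIT chain, by 1.56 ± 0.30 (limma, adjusted p 0.0463, 0.0491, 0.0115 and 0.0103). Col6a3 had 2534, 2571 and 3529 normalised counts in NRF1 KD libraries, against 1131 and 1497 in WT con libraries. The highest fold change, that of Col12a1, was 2.18 ± 0.70 and not called (adjusted p 0.0713), since its libraries scattered: 1189, 275 and 1292 normalised counts in NRF1 KD and 83.8 and 321 in WT con libraries. Col25a1 had the lowest, -0.84 ± 0.47 (adjusted p 0.272).

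In muscle labelled double KD, where Nrf1 was not called lower either, 3 chains rose and 0 fell against WT con muscle, where 2.39% of all genes rose and 1.7% fell. Col3a1 had 32970, 22395 and 14629 normalised counts in double KD libraries, against 6500 and 10537 in WT con libraries, a log2 fold change of 1.42 ± 0.33 (limma, adjusted p 0.04). Col8a1 had 1487, 1196 and 1031 in double KD libraries, against 431 and 467 in WT con libraries, and rose by 1.45 ± 0.20 (adjusted p 0.00632). Col6a4 had 20.9, 22.7 and 15.2 normalised counts in double KD libraries, against 1.09 and 0 in WT con libraries. Col6a4 passed the test (adjusted p 0.014), and its fitted value of 3.81 depends on the pseudocount.

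Many further chains lay just outside the call in double KD muscle. At an unadjusted p under 0.05, 18 chains were higher and 1 lower, against 1868 and 1482 of all 15624 genes. For 17 chains every double KD library lay above both WT con libraries and for 1 every one below, against 18.1% and 17.6% of all genes. The median log2 fold change was 0.83 over the chains and 0.02 over all genes. Col1a1 had 18306, 8970 and 6187 normalised counts in double KD libraries, against 2716 and 4694 in WT con libraries, with 1.49 ± 0.40 on the log2 scale (limma, adjusted p 0.0638). Col1a2 gave 1.39 ± 0.37 (adjusted p 0.0609). All 11 fibrillar chains were on the higher side, with a median of 1.21, and Col4a1 gave 0.31 ± 0.30. Col19a1 was the lowest chain, with 46.2, 38.8 and 42.4 normalised counts in double KD libraries, against 96.9 and 80.5 in WT con libraries. Its groups did not overlap, and the log2 fold change of -1.04 ± 0.28 had an adjusted p of 0.064.

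Double KD and NRF1 KD muscle were not told apart for any chain. Of 39 chains 0 rose and 0 fell at an adjusted p under 0.05 in limma-trend, where 0.0768% of all genes rose and 0.0576% fell, and edgeR on recovered reads called 0 as well. At an unadjusted p under 0.05, 1 chain was higher and 1 lower, against 696 and 1060 of all 15624 genes. The groups did not overlap for these 2 chains, where 8.03% of all genes had every double KD library above and 8.28% every one below. The chain that was higher was Col6a4, with 20.9, 22.7 and 15.2 normalised counts in double KD and 2.88, 4.47 and 8.36 in NRF1 KD libraries, 1.80 ± 0.58 on the log2 scale (adjusted p 0.265). The lower one was Col19a1, with 46.2, 38.8 and 42.4 in double KD and 65.3, 91.2 and 54.3 in NRF1 KD libraries (-0.68 ± 0.25, adjusted p 0.321). Col1a1 gave -0.23 ± 0.36 and Col3a1 -0.04 ± 0.29, and Col12a1 was lowest at -0.80 ± 0.63. Both knockdown groups are set against the same WT con libraries, so their fold changes against it are not independent of each other.

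WT con library 2 weighed on all these values. Without it the median log2 fold change of the chains was 0.46 in NRF1 KD and 0.57 in double KD muscle. Without WT con library 3 the medians were 1.19 and 1.06. Either fit leaves 1 WT con library, so only fold changes are given. In NRF1 KD muscle 3 chains rose without NRF1 KD library 3 and 6 without library 2, where 2.71% and 3.81% of all genes rose. In double KD muscle 8 chains rose without double KD library 3 and 1 without library 2, where 1.52% and 0.518% of all genes rose. Macrophage markers summed to 16973, 33606 and 34774 normalised counts in NRF1 KD libraries, 20743, 15272 and 13180 in double KD and 7383 and 9615 in WT con libraries. All 8 rose in NRF1 KD muscle and 1 of 8 in double KD muscle, where 7.58% and 2.39% of all genes rose. Fibroblast markers summed to 27213, 28676 and 34026 in NRF1 KD, 43609, 40535 and 25697 in double KD and 18023 and 39304 in WT con libraries, and WT con library 2 was lowest. In this list 2 of 9, Dpt and Mfap5, rose in each knockdown group, beside the same shares of all genes. The part of these cells in the result was not tested. The authors' deposited table lists 39 chains, of which 10 had an adjusted p under 0.05 for NRF1 KD and 9 for double KD. The shares of all genes that passed in the authors' tests were not taken.

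**Figure D4:**
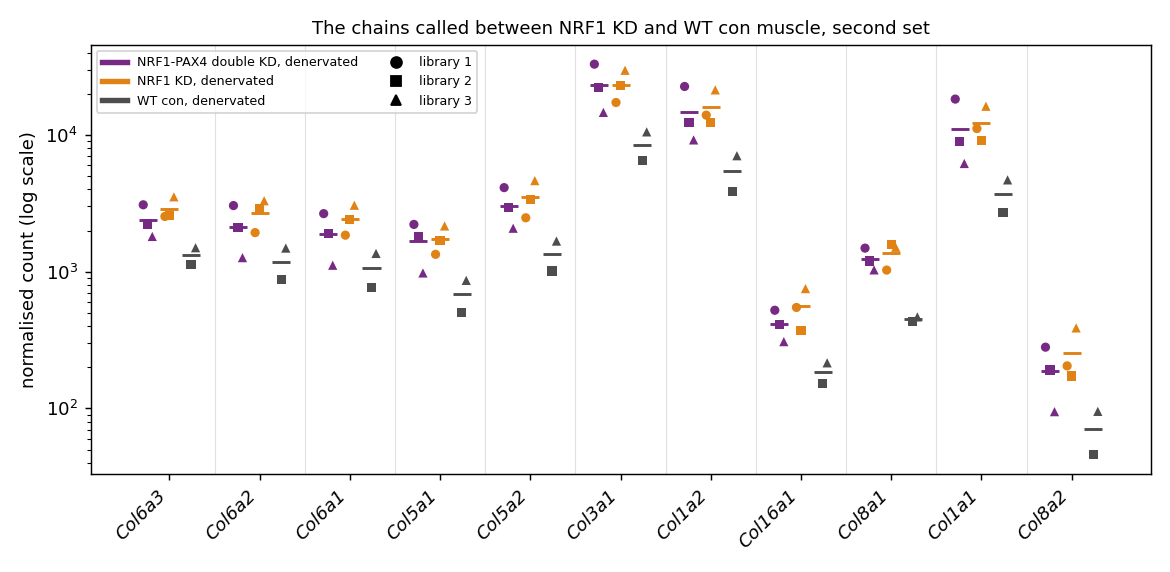
Normalised counts (log axis) of the 11 chains called in NRF1 KD against WT con muscle, with double KD, NRF1 KD and WT con libraries from left to right and a bar for each group mean. WT con library 2 is the lowest of the 8 libraries for each of the 11 chains, as for Col1a1 at 2716.

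**Figure D5:**
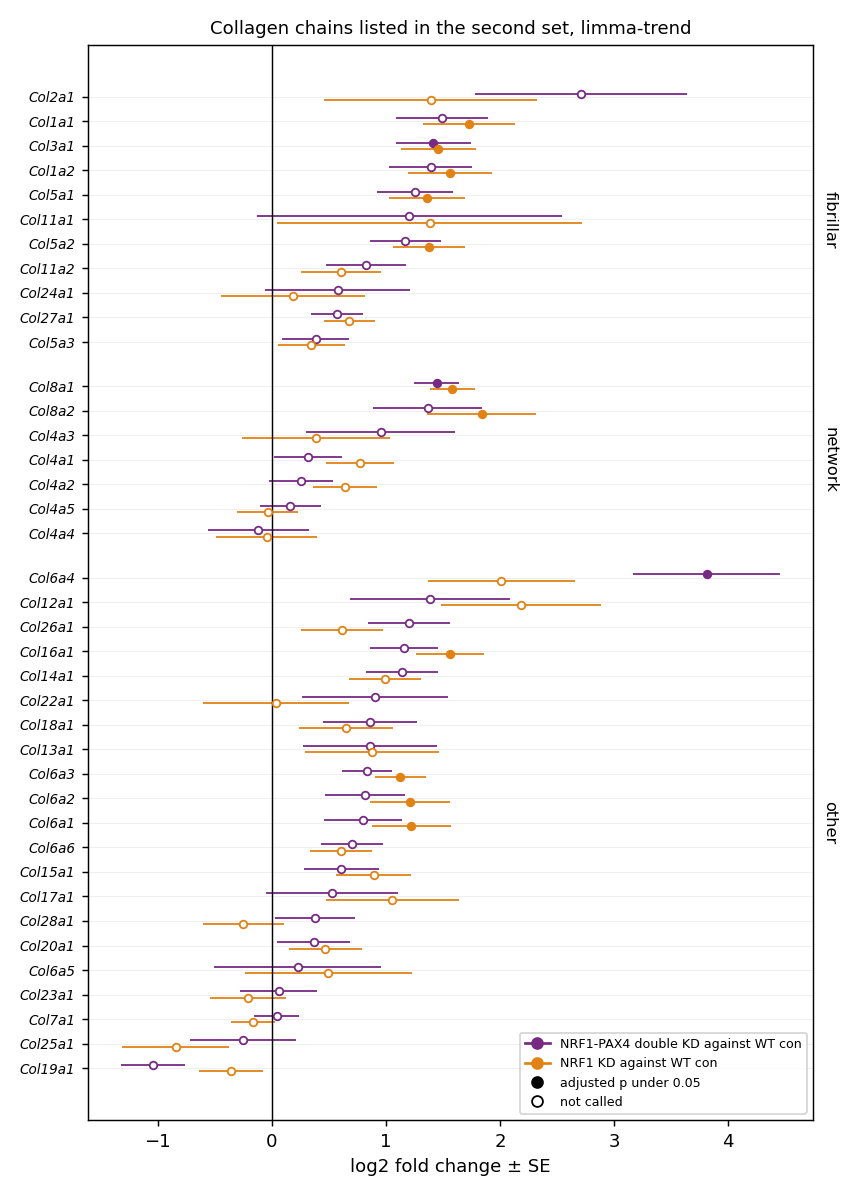
Log2 fold changes with SE of the 39 chains listed in the second set, for double KD (purple) and NRF1 KD (orange) against the same WT con libraries; filled points passed an adjusted p under 0.05. Col8a1 and Col3a1 are filled in both colours, and Col19a1 lies farthest left in double KD at -1.04.

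Ratios of chains that assemble with each other were narrow in range for some pairs and wide for others. Per kilobase, Col4a1 stood at 1.34 to 1.52 times Col4a2 in PAX4 KO, 1.31 to 1.33 in denervated WT and 1.37 to 1.46 in innervated WT libraries. Col6a1 stood at 1.00 to 1.07 times Col6a2 in PAX4 KO, 0.977 to 1.12 in denervated WT and 1.02 to 1.07 in innervated WT libraries. Col1a1 to Col1a2 was 0.691 to 0.875 in PAX4 KO, 0.644 to 0.771 in denervated WT and 0.440 to 0.701 in innervated WT libraries. Col4a3 to Col4a4 ran from 0.622 to 0.735, 0.544 to 0.955 and 0.724 to 0.982 in the same groups, and Col8a1 to Col8a2 from 1.78 to 5.34, 3.26 to 6.07 and 2.00 to 5.90. Col5a1 to Col5a2 was 0.334, 0.361 and 0.388 in PAX4 KO and 0.340, 0.345 and 0.356 in denervated WT libraries, against 0.600, 0.556 and 0.483 in innervated WT libraries. In this ratio all 6 denervated libraries lay below all 3 innervated ones; it was picked after its values were seen and has no test. Neither Col5a1 nor Col5a2 alone was called with denervation, while the type V chain Col5a3 was called lower, at -0.65 ± 0.15. In the second set, where all muscle was denervated, the ratio was 0.371 to 0.485 in double KD, 0.367 to 0.426 in NRF1 KD and 0.394 and 0.406 in WT con libraries.

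Of the 32 genes for enzymes and helpers that modify, fold, trim and cross-link collagen, 4 rose and 3 fell with denervation of WT muscle, where 16.5% of all genes rose and 15.8% fell, so neither count exceeded that background. Lox, the enzyme that starts cross-linking, had 41.7, 30.4 and 36.4 CPM in denervated WT libraries, against 9.01, 19.1 and 11.2 CPM in innervated WT libraries, and rose by 1.45 ± 0.26 on the log2 scale (edgeR, adjusted p 0.00248). P4hb, a subunit of prolyl 4-hydroxylase, and Loxl1, a relative of Lox, rose by 0.62 and 0.92, and P4ha2, a catalytic prolyl 4-hydroxylase subunit, and Colgalt2, which adds galactose, fell by 0.86 and 0.72. Between PAX4 KO and denervated WT muscle 0 of 32 were called, with a median of 0.51. Lox had 57.6, 88.7 and 72.5 CPM in PAX4 KO libraries, all above the denervated WT libraries, at 1.01 ± 0.25 (adjusted p 0.264). Against innervated WT muscle, 14 rose and 2 fell in PAX4 KO muscle, where 21.8% of all genes rose and 18.2% fell.

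In the second set 5 of the 32 rose and 0 fell in double KD muscle against WT con, where 2.39% of all genes rose and 1.7% fell. In NRF1 KD muscle 10 rose and 0 fell, where 7.58% rose and 3.72% fell. P4ha3, a catalytic subunit of prolyl 4-hydroxylase, had 130.8, 64.7 and 60.9 normalised counts in double KD and 86.4, 77.8 and 119 in NRF1 KD libraries, against 17.4 and 12.6 in WT con libraries. It rose by 2.36 ± 0.37 in double KD and 2.57 ± 0.37 in NRF1 KD muscle on the log2 scale (limma, adjusted p 0.0112 and 0.00414). Fkbp10, a folding helper of collagen, rose by 1.17 and 1.29 and Loxl1 by 0.80 and 0.90 in the same groups. Lox was not called in either group.

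Counts for genes of collagen breakdown, receptors and regulators stand beside the same shares of all genes: 16.5% rose and 15.8% fell with denervation, 7.58% and 3.72% in NRF1 KD and 2.39% and 1.7% in double KD muscle. With denervation of WT muscle, 2 of 17 breakdown genes rose (Mmp3, a matrix protease, 2.70, and Timp1, an inhibitor of such proteases, 2.20) and 3 fell (Timp3, Mmp15 and Timp4). In NRF1 KD muscle 7 of 17 rose and 0 fell, led by the macrophage elastase Mmp12 (2.71) and Timp1 (1.41), and in double KD muscle 0 of 17 rose or fell. Of 11 receptors tested, 3 rose and 2 fell with denervation, 2 rose in NRF1 KD muscle (Cd44 and Lair1) and 0 in double KD muscle. Of 18 regulators, 8 rose and 2 fell with denervation. Among those that rose were Tgfb1, a growth factor that raises collagen production (1.47), and Ctgf (1.80). Its relative Tgfb2 lay the other way, with 17.1, 15.9 and 11.3 CPM in denervated WT and 24.3, 25.1 and 22.1 CPM in innervated WT libraries. In NRF1 KD muscle 4 regulators rose and 3 fell, and in double KD muscle 2 rose and 2 fell. In PAX4 KO against denervated WT muscle 0 genes of these 3 lists were called, with medians of 0.83, 0.56 and 0.20 for breakdown, receptors and regulators.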

How the data were processed

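Skeletal muscle RNA of mice was isolated by TRIzol, and 1 ug per library went into the SMARTER mRNA-Seq kit, per the labels' protocols. GRCm38 and mm10 are the builds listed by the submitters' processing notes. For the aligner, the counting tool and the strand setting the answer is not given in the sources used here. The first file holds raw counts per gene as the authors deposited them. The authors' deposited file of the second set holds log2 values on a variance-stabilised scale, a signal column with the mean normalised count, and p-value columns of their own tests.

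Columns of the first set carry numbers that the labels lack, so they were tied to groups, and the libraries of a group are called 1 to 3 in ascending order of these numbers. WT con library 1, WT Innervated 1 and 2 and the samples at 14 d were not analysed here, since no column could be tied to them. The log2 values were inverted to normalised counts, which matched the deposited mean signal within 3.34e-07%, and the reads recovered from them were whole within 0.05 in 100% of cases.

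The counts went into edgeR 4.0.16 under R 4.3.3 (quasi-likelihood F test, TMM scaling, filterByExpr, all 3 groups in 1 fit). For the second set limma 3.58.1 (limma-trend) took log2 of the normalised count with 1 added. Both ran across all genes with Benjamini-Hochberg adjustment, and a call is an adjusted p under 0.05. Each log2 fold change, SE and adjusted p of the report is from them unless another tool is named; the SE in edgeR is the fold change divided by the root of its F statistic. CPM use TMM-scaled library sizes, and levels per kb use the coding transcript with the longest coding sequence in GENCODE. On simulated data edgeR recovered 71% of genes changed by 1 on the log2 scale and 100% of those changed by 2, over 16146 genes and for denervated against innervated WT. For NRF1 KD against WT con limma recovered 94% and 100% over 15624 genes. False calls made up 4.5% of the calls in edgeR and 5.8% in limma. The simulation gave all genes of a set the same scatter beyond counting noise. It changed only genes above a minimum level and held no outlying library. These shares therefore do not apply to chains with wider scatter, such as Col1a1 with an SE of 0.54 for denervation.

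The members and gene lists were chosen with earlier results of these data known. The result of 1 marker list is not reported here. The plan was to give values per library for the 3 chains of highest mean in each class and for the highest and lowest fold changes. It also held chains called in the first set at a mean of at least 1 CPM (up to 5 per class and direction). Col13a1, Col19a1, Col22a1 and Col25a1 were in it too. For some of these chains, such as Col4a2, Col6a2 and Col14a1, only fold changes are given. Of other lists up to 3 members per direction are named by smallest adjusted p. Further chains and genes, such as Col9a1, Col6a4, Col16a1, Lox and Ctgf where outside this rule, were named after their values were seen. Alternatives were DESeq2 1.42.0 and its size factors, no filter, only the groups compared, pseudocounts of 0.1 and 5, a mean of at least 50 normalised counts, edgeR on recovered reads, each library left out and a replicate block. Innervated WT library 2 and denervated WT library 1 were also left out together, a choice made with those earlier results known.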

Additional observations from a re-analysis of the deposited data

How the results depend on the processing

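Under DESeq2 size factors and with only the groups compared, every count of called chains in the first set stayed within 1.5 times its value. With no filter on low counts 7 chains rose with denervation and 15 in PAX4 KO against denervated WT muscle, where 9.46% and 1.16% of all genes rose. For PAX4 KO against denervated WT muscle DESeq2 called 1 chain, where 0.423% of all genes rose. The fit without innervated WT library 2 and denervated WT library 1 called 3 there, where 0.645% of all genes rose. With single libraries left out, the chains that rose with denervation ranged from 2 to 5 and those that fell from 4 to 10. In these fits 10.5% to 16.5% of all genes rose and 1768 to 2618 genes fell. The chains called in PAX4 KO against denervated WT muscle stayed at 0. In PAX4 KO against innervated WT muscle 7 to 15 chains rose and 3 to 7 fell. There 15% to 22.1% of all genes rose and 2258 to 2993 genes fell. In the second set, with an NRF1 KD or double KD library left out, 3 to 12 chains rose in NRF1 KD muscle against WT con. In double KD muscle 1 to 8 rose. Over all genes 2.71% to 8.36% rose in NRF1 KD and 0.518% to 2.79% in double KD muscle. Pseudocounts of 0.1 and 5, a mean of at least 50 normalised counts, only the groups compared and edgeR on recovered reads (9 and 3 chains) kept these counts within 1.5 times. Of the chains whose fold changes were traced singly, the uncalled ones below changed sign, each with a library left out: Col1a1 (-0.26 to 0.45) and Col1a2 (-0.38 to 0.048) with denervation, Col11a1 (-0.84 to 3.74) and Col22a1 (-0.32 to 0.93) in PAX4 KO against denervated WT, Col4a1 in double KD against WT con (-0.038 to 0.67), and Col1a1 (-0.67 to 0.12) and Col3a1 (-0.33 to 0.25) in double KD against NRF1 KD muscle. Further chains turned: with denervation 16 of 41 were positive and 13 to 21 with a library left out, the highest without innervated WT library 2, and in PAX4 KO against denervated WT muscle 32 were positive and 26 without PAX4 KO library 2. The cause was not tested. Some denervated and innervated WT libraries share column numbers, which the labels do not give. Their deviations from the group mean of each gene, on log2 of CPM plus 1, were correlated. Same-numbered libraries gave correlations of 0.203, 0.0492 and 0.318 of these deviations. In these deviations each denervated library correlated best with its own number, a hint from the data and not from the design. A replicate block gave 4 chains that rose and 9 that fell, where 16.5% of 15389 genes rose and 2496 genes fell. Of these 13 chains 11 were among the 12 calls, Col28a1 was lost and Col4a1 and Col6a5 were gained. In the second set same-numbered libraries did not deviate together (correlations of -0.219 to 0.141). With a replicate block 2 chains rose in NRF1 KD, 1 in double KD against WT con and 0 between them. Of all genes 3.28%, 0.512% and 0.0448% rose in these fits. No paired analysis was possible for PAX4 KO muscle because its columns share no number with the WT columns. The depth limits the chains under 1 CPM most, such as Col9a1 with 1 to 4 counts in denervated libraries.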
